A study of Mus musculus with 8 samples.

Results

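A set of 10 genes of the PPAR axis was followed in the kidney of mice that lack the secreted protein CTRP1 and of their wild-type littermates. They are the 4 receptor genes Ppara, Ppard, Pparg and Rxra, the 2 coactivator genes Ppargc1a and Ppargc1b, and the 4 response genes Pdk4, Angptl4, Fgf21 and Ucp2. They were chosen by name and not by a cutoff on a measured value, but with earlier results of these data known. All 10 were found among the 35275 genes of the deposited table. Poly-A RNA of the whole left kidney was sequenced from 8 male mice aged 40 weeks, 4 of each genotype, 1 library per mouse. Knockout mice (KO) were homozygous for the C1qtnf1 tm1Lex allele, in which the coding region of exon 4 and part of the 3' UTR are deleted in every tissue. The allele was made in 129S5 embryonic stem cells and crossed back to C57BL/6J over more than 6 generations. Wild-type mice (WT) were +/+ littermates from the same heterozygous crosses. Both groups had eaten a high-fat diet (60% of calories as fat) since the age of 6 weeks. No mouse on ordinary chow is part of the comparison, and levels on chow are not known here. The question was whether the PPAR axis differs between mice with and without CTRP1 on this high-fat diet.

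PPARs are nuclear receptors that bind fatty acids and their derivatives, pair with a retinoid X receptor such as RXR-alpha (the product of Rxra) and bind DNA as that pair. PPAR-alpha drives the genes of fatty acid oxidation in tissues that burn fat, among them the proximal tubule of the kidney, which depends on fatty acids for its ATP. PPAR-delta is made in most tissues and overlaps with it in its targets, while PPAR-gamma is best known for fat storage in adipocytes. PGC-1-alpha and PGC-1-beta, the products of Ppargc1a and Ppargc1b, are coactivators of these receptors and of the receptors that control mitochondrial genes.

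The libraries held 17884140 to 20344859 reads, and 19058 to 19467 genes were above 0 in each. C1qtnf1 had 5.27 to 5.55 FPKM in the WT mice and 0.322 to 0.883 in the KO mice, so every library matched its label. FPKM are reads scaled for gene length and library depth, so they can be compared between genes. KO replicate 2 stood apart from the other libraries. It lay outside the range of the other 7 for 66.5% of the tested genes, against 11.9% to 29.1% for any other library. Several results below that it moves are also given without it, but not all. Nothing ties a KO mouse to a WT mouse, and the labels do not say how littermates were spread over litters. Defining kidney markers were high in all 8 mice, with a summed proximal tubule list of 6396 to 8008 FPKM in WT and 6860 to 7450 in KO. As the tissue was a whole kidney, fewer cells of a type and less RNA per cell cannot be told apart.

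None of the 8 PPAR axis genes that could be tested passed between KO and WT at an adjusted p of 0.05 (limma with Benjamini-Hochberg adjustment). At an unadjusted p under 0.05 there were also 0 of 8 by limma, and 0 were past the threshold with limma-voom on recovered reads. Among all 12118 tested genes, 5 passed (0.0413%) and 721 had an unadjusted p under 0.05. The other two members, Pparg and Fgf21, lay below the mean of 1 FPKM that the test required. The values of KO and WT mice overlapped for all 8 tested members, where 5.17% of the tested genes had groups that did not overlap. Without KO replicate 2 the groups no longer overlapped for 2 of the 8, Ppard and Rxra, against 11.3% of the tested genes.

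**Figure D1:**
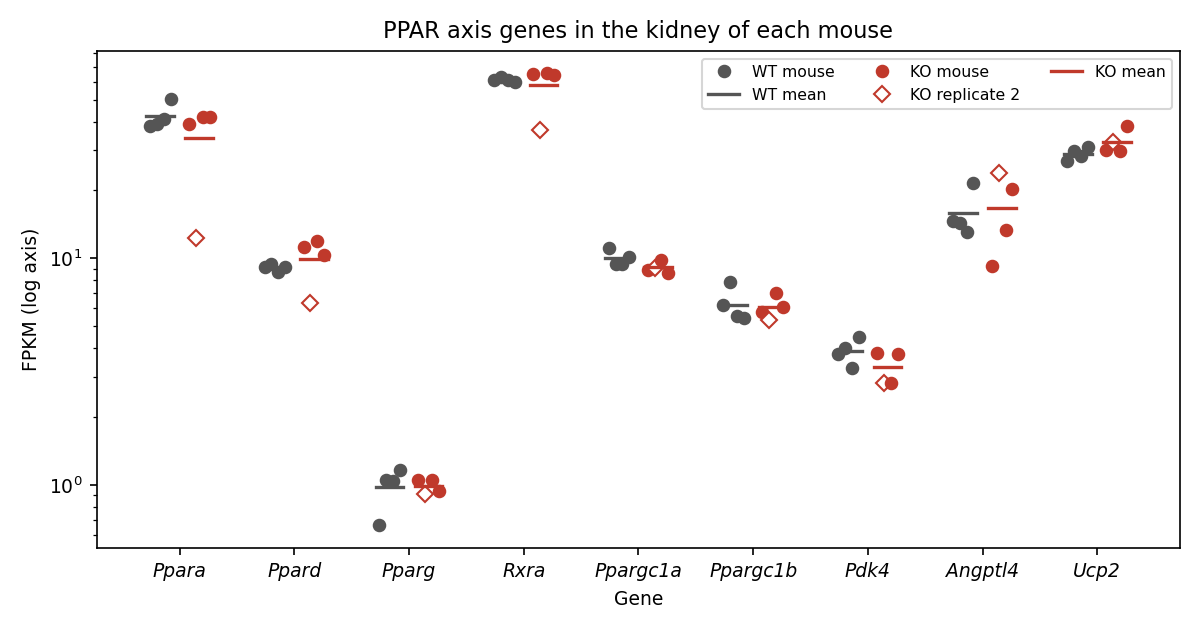
FPKM on a log axis for 9 PPAR axis genes in each of the 8 mice, with the mean of each group as a bar and KO replicate 2 as an open diamond. Fgf21 is left out because it was at 0 in 7 mice. KO replicate 2 sits far below the other mice for Ppara (12.3 FPKM) and Rxra (36.6 FPKM), and the WT and KO values of every gene overlap.

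In WT kidneys the levels fell into an order in which no neighbours overlapped. Ppargc1a (lowest value 9.41 FPKM) and Ppard (highest value 9.38 FPKM) nearly met. Rxra was highest at 61.3 ± 1.36 FPKM (SD, n = 4), followed by Ppara, Ucp2, Angptl4, Ppargc1a, Ppard, Ppargc1b, Pdk4 and Pparg, with Fgf21 at 0. In KO kidneys the means gave the same order, except that Ppard stood before Ppargc1a. The KO ranges overlapped between Rxra and Ppara, between Ppara and Ucp2, between Angptl4 and Ppard, and between Ppard and Ppargc1a.

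Ppara, which encodes the receptor for genes of fatty acid oxidation, came second in level among the members and had the widest spread among KO mice of the tested ones. It lies on chromosome 15 from 85734983 to 85802819 on the forward strand (mm10). The WT mice had 38.3, 39.0, 40.9 and 50.4 FPKM in replicates 1 to 4. In KO the values were 38.9, 12.3, 42.0 and 41.8 FPKM. The KO values other than that of replicate 2 therefore lay inside the WT range. KO replicate 2 had 773 reads of Ppara where the other mice had 2374 to 3501. On the log2 scale KO minus WT was -0.43 ± 0.32 (SE), with a limma adjusted p of 0.86 and a 95% interval from -1.13 to 0.27. Without KO replicate 2 it was -0.04 ± 0.10 (limma adjusted p = 0.92), with an interval from -0.27 to 0.18.

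Ppard, the gene of PPAR-delta, had close values within WT and higher values in 3 of the 4 KO mice. The gene spans 28232700 to 28301474 of chromosome 17, forward strand. WT replicates 1 to 4 had 9.13, 9.38, 8.68 and 9.13 FPKM. KO replicates 1 to 4 had 11.2, 6.33, 11.9 and 10.3 FPKM. KO replicate 2 was again the lowest of all 8 mice, and the other KO mice lay above every WT mouse. Over all mice the log2 fold change was 0.10 ± 0.14 (limma adjusted p = 0.89). Without KO replicate 2 it was 0.26 ± 0.07, with an interval from 0.11 to 0.41, which corresponds to an unadjusted p of 0.0036 and did not pass over all genes (limma adjusted p = 0.23). In that fit 11.4% of the tested genes had an unadjusted p under 0.05. With KO replicate 3 left out in place of it, the log2 fold change was 0.02 (limma adjusted p = 0.97).

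Rxra, whose product is the DNA-binding partner of all PPARs, was the most even member in WT. Its position is chromosome 2, 27676440 to 27762957, forward strand. Its WT values were 61.0, 63.1, 61.1 and 59.8 FPKM, a coefficient of variation of 2.22%, where the median tested gene had 8.89%. The KO values were 65.1, 36.6, 65.3 and 63.9 FPKM. As with Ppard, KO replicate 2 was the lowest of the 8 mice and the other KO mice were higher than every WT mouse, here by a small margin. The fit gave a log2 fold change of -0.10 ± 0.15 (limma adjusted p = 0.90) over all mice and 0.07 ± 0.06 (limma adjusted p = 0.68) without KO replicate 2.

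Pparg, which encodes the receptor of fat storage, was close to the lower limit of what was tested. The locus is chromosome 6, 115360951 to 115490399, forward strand. The WT mice had 0.664, 1.05, 1.04 and 1.16 FPKM and the KO mice 1.05, 0.907, 1.05 and 0.944. These values rest on 25 to 44 reads per mouse. With the filter lowered to 0.1 FPKM, the log2 fold change was 0.02 ± 0.10 (limma adjusted p = 0.97). Adipoq, the adipocyte hormone gene, had 0.36 ± 0.471 FPKM in WT against 0.253 ± 0.264 in KO. Plin1, the gene of the coat protein of their fat droplets, was at 0.294 ± 0.5 and 0.599 ± 0.605 FPKM. Both were below the tested range, and the groups overlapped. Single mice carried much of these means, with 1.04 FPKM of each gene in WT replicate 2 and 1.43 of Plin1 in KO replicate 1.

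**Figure D2:**
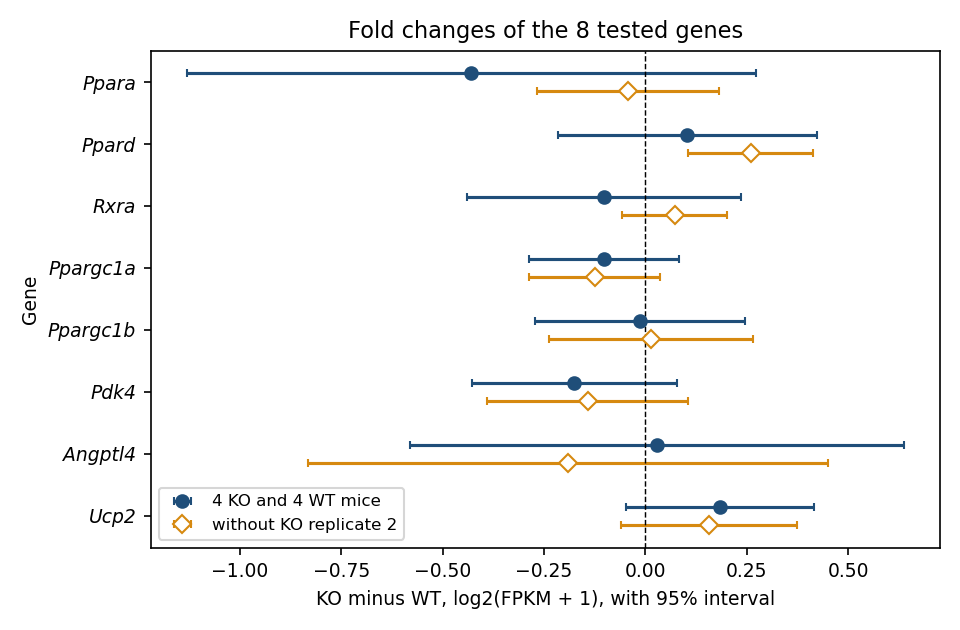
KO minus WT on the log2(FPKM + 1) scale for the 8 tested genes, with 95% intervals, from the fit to all 8 mice (filled circles) and from the fit without KO replicate 2 (open diamonds). The interval of Ppara from -1.13 to 0.27 narrows to -0.27 to 0.18 without that mouse, and that of Ppard is the only one that then lies wholly above 0.

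Of the coactivator genes, Ppargc1a had its highest values in WT mice, with some overlap. The gene spans 51454250 to 51567726 of chromosome 5, reverse strand. The WT mice had 11.0, 9.41, 9.42 and 10.1 FPKM and the KO mice 8.89, 9.05, 9.82 and 8.63. In FPKM only KO replicate 3 reached into the WT range. On the scaled log2 level used in the fit, KO replicate 2 did so too, at 3.42 where the lowest WT mouse had 3.37. The log2 fold change was -0.10 ± 0.08 (limma adjusted p = 0.87), with an interval from -0.29 to 0.08. Unlike Ppara, Ppard and Rxra, Ppargc1a was within the range of the other mice in KO replicate 2, which stood at 0.961 times the median of the other 7 mice.

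Ppargc1b, the gene of the related coactivator PGC-1-beta, lies on chromosome 18 from 61298136 to 61400431 on the reverse strand. It had 6.19, 7.81, 5.54 and 5.43 FPKM in WT and 5.78, 5.32, 7.05 and 6.08 FPKM in KO. The highest value of all came from WT replicate 2, and the groups were mixed. The log2 fold change was -0.01 ± 0.12 (limma adjusted p = 0.99), with an interval from -0.27 to 0.25.

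Among the response genes, Pdk4 encodes a kinase that switches off pyruvate dehydrogenase and so spares glucose when fat is burned. Its position is chromosome 6, 5483351 to 5496309, reverse strand. The WT mice had 3.78, 4.03, 3.29 and 4.50 FPKM and the KO mice 3.80, 2.82, 2.80 and 3.78. KO replicates 2 and 3 lay below all WT mice, while the other two lay among them. KO minus WT was -0.18 ± 0.11 on the log2 scale (limma adjusted p = 0.86), with an interval from -0.43 to 0.08.

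Angptl4, which encodes a secreted inhibitor of lipoprotein lipase, varied most among the WT mice of the tested members. The locus is chromosome 17, 33773750 to 33781830, reverse strand. WT replicates 1 to 4 had 14.6, 14.3, 13.0 and 21.4 FPKM, and KO replicates 1 to 4 had 9.19, 23.8, 13.3 and 20.1. One mouse of the WT group and 2 of the KO group were thus high, and KO replicate 1 was lowest. The coefficient of variation was 24.0% in WT and 39.6% in KO, against 8.89% and 15.9% for the median tested gene. Counting error alone gives 3.24% for the WT values. KO minus WT was 0.03 ± 0.27 (log2, limma adjusted p = 0.99). Its interval from -0.58 to 0.64 spans folds of 0.669 to 1.56. Without KO replicate 2, KO minus WT was -0.19 ± 0.27 (limma adjusted p = 0.85).

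Fgf21, the gene of a fasting hormone that PPAR-alpha induces in liver, was barely detected. The gene spans 45613886 to 45615490 of chromosome 7, reverse strand. No read was counted in 7 mice, and KO replicate 2 had 1 read (0.0585 FPKM). For WT, a count of 0 allows up to 3 reads over the group, or a mean of 0.0411 FPKM. Klb, which encodes the coreceptor that FGF21 needs, had 0.00355 FPKM in WT against 0.0154 in KO, whereas its receptor gene Fgfr1 had 14.1 FPKM in both. Klb too was barely detected and not tested, at 0 to 0.0142 FPKM in WT and 0 to 0.0471 in KO. Its highest value came from KO replicate 2.

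Ucp2, the gene of a mitochondrial carrier of the uncoupling protein family, had the lowest p of the 8 members. Its position is chromosome 7, 100493337 to 100502020, forward strand. The WT mice had 26.9, 29.6, 28.3 and 31.0 FPKM and the KO mice 30.0, 32.5, 29.8 and 38.4. The KO values began inside the WT range and KO replicate 4 was the highest. KO exceeded WT by 0.18 ± 0.10 on the log2 scale (limma adjusted p = 0.86), with an interval from -0.05 to 0.42. An exact permutation test (two-sided) gave p = 0.14 for Ucp2, the lowest of the members, where 4 mice against 4 cannot give less than 0.029.

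The members did not share the displacement of KO replicate 2. That mouse was below all 7 others for Ppara, Ppard and Rxra, above all others for Angptl4, and within their range for Ppargc1a, Ppargc1b, Pdk4 and Ucp2. Relative to the median of the other 7 mice it had 0.301 times the Ppara level, 0.58 times the Rxra level, 0.675 times the Ppard level and 1.67 times the Angptl4 level. Of the tested genes, 0.14% were displaced further down in this mouse than Ppara, and 2.69% further up than Angptl4. Other gene lists moved in the same library. The mean log2 level of the endothelium markers was -0.71 relative to WT, that of the proximal tubule markers -0.40, and that of the immediate early and heat shock list, whose genes respond to stress and to the handling of tissue, 1.30. The part of these shifts in the receptor values was not tested.

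**Figure D3:**
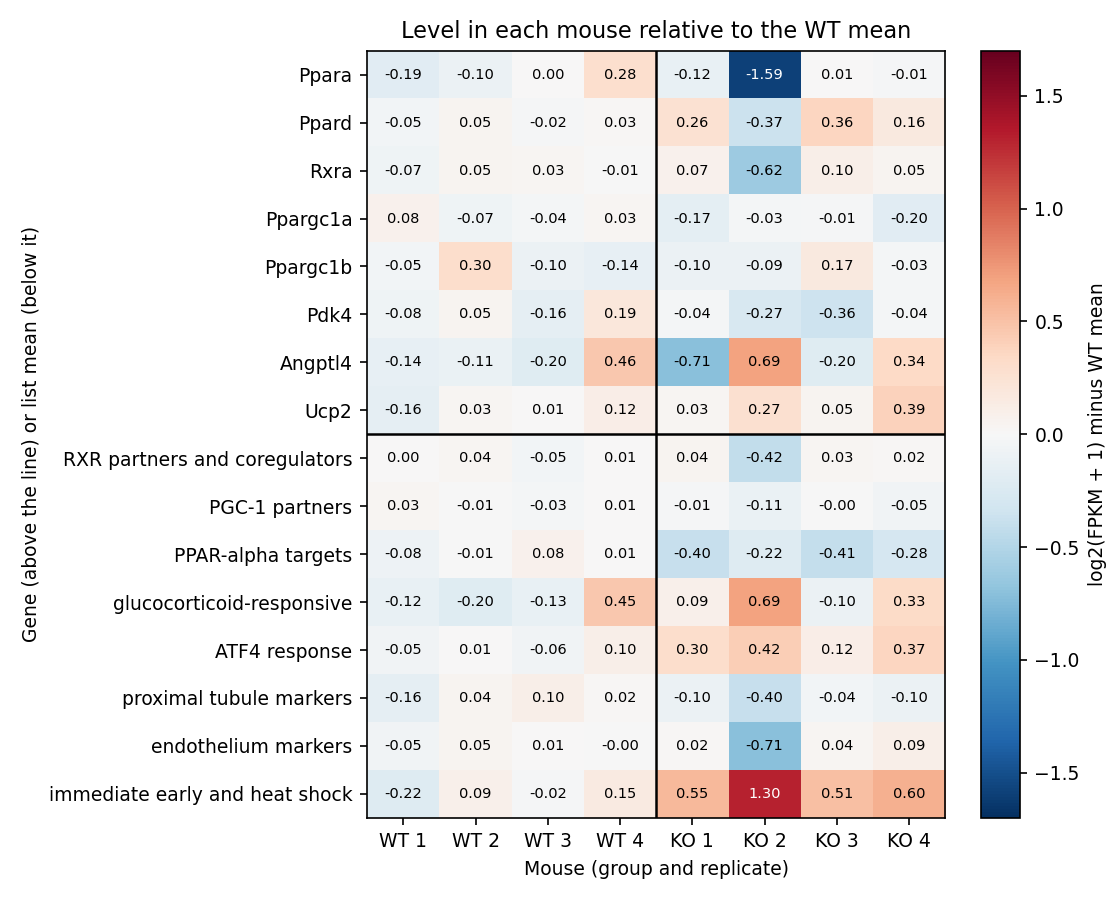
Level in each mouse minus the WT mean on the log2(FPKM + 1) scale, for the 8 tested genes above the line and the means of 8 gene lists below it. The column of KO replicate 2 holds the lowest values of Ppara (-1.59) and Rxra (-0.62). The mean of the PPAR-alpha targets, a list drawn up with low values already known, is below every WT mouse in all 4 KO mice.

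Among listed genes that PPAR-alpha is known to induce, 2 fell in KO, where 5 of all 12118 tested genes passed (0.0413%). Ppara itself lay inside the WT range in 3 of the 4 KO mice, and its part in the target values was not tested. Of 30 listed targets in fatty acid oxidation, 28 were tested. None rose, 26 did not pass, and those that fell included Cyp4a14. The fold changes were below 0 for 27 of the 28, with a median log2 of -0.19, where 47.2% of all tested genes were above 0 and their median was -0.01. Cyp4a14, an omega-hydroxylase of fatty acids, had 25.7 to 47.1 FPKM in WT and 5.48 to 11.8 in KO (log2 fold change -2.04 ± 0.23, limma adjusted p = 0.0091). Cyp4a10, a related hydroxylase, had 85.1 to 115 FPKM in WT and 53.8 to 73.1 in KO, and did not pass (limma adjusted p = 0.19). It was chosen after its values were seen, and reads shared among the similar Cyp4a genes would make their levels uncertain. The list mean per mouse lay from -0.08 to 0.08 in WT and from -0.41 to -0.22 in KO. KO replicate 2 had the highest list mean of the KO mice. Without it, 4 of the 28 passed, all lower in KO (Cyp4a10, Cyp4a14 and Acot3 among them), against 21 of 12120 genes (0.173%), and the median was -0.21. The list was drawn up with low values of such targets in these libraries already known, so its count is no independent evidence of a direction.

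The partners of the receptors did not pass the test in either direction. Of 16 genes for RXR partners and nuclear coregulators, 15 were tested, 4 were above and 11 below 0, and the median log2 fold change was -0.10. Without KO replicate 2 the median was 0.00 and 9 were above 0. Rxrb, the other RXR gene that was well measured, had 37.8 ± 3.51 FPKM in WT against 44.2 ± 8.01 in KO (limma adjusted p = 0.85). Hdac3, a deacetylase of corepressor complexes, was at 13.7 ± 0.251 and 12.0 ± 0.692 FPKM. All 10 PGC-1 partners and mitochondrial regulators were tested, with 3 above 0, 7 below 0 and a median of -0.04. In that list Esrrg, an orphan receptor that PGC-1 coactivates, had 14.6 ± 0.746 FPKM in WT against 12.5 ± 0.779 in KO without overlap (limma adjusted p = 0.78), and Nrf1 at 4.87 ± 0.493 and 4.18 ± 0.322 FPKM.

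Targets outside oxidation and relatives of the response genes gave 0 calls as well. Of 20 PPAR targets in lipid uptake and storage, 17 were tested, 8 were above and 9 below 0, with a median of -0.02. Lpl, the lipase that ANGPTL4 inhibits, had 46.2 ± 8.71 FPKM in WT against 72.8 ± 21.4 in KO (limma adjusted p = 0.73). Plin5, a coat protein of lipid droplets, was at 3.94 ± 0.151 and 3.19 ± 0.212 FPKM. Of 19 relatives and partners of the PDK, ANGPTL, FGF21 and UCP families, 14 were tested, 3 were above and 11 below 0, and the median was -0.12. Pdk1, another pyruvate dehydrogenase kinase, had 8.14 to 10.7 FPKM in WT and 6.05 to 7.38 in KO (log2 fold change -0.36 ± 0.09, limma adjusted p = 0.39). Gpihbp1, which anchors lipoprotein lipase on endothelium, was at 6.46 ± 1.94 and 4.72 ± 0.92 FPKM.

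**Figure D4:**
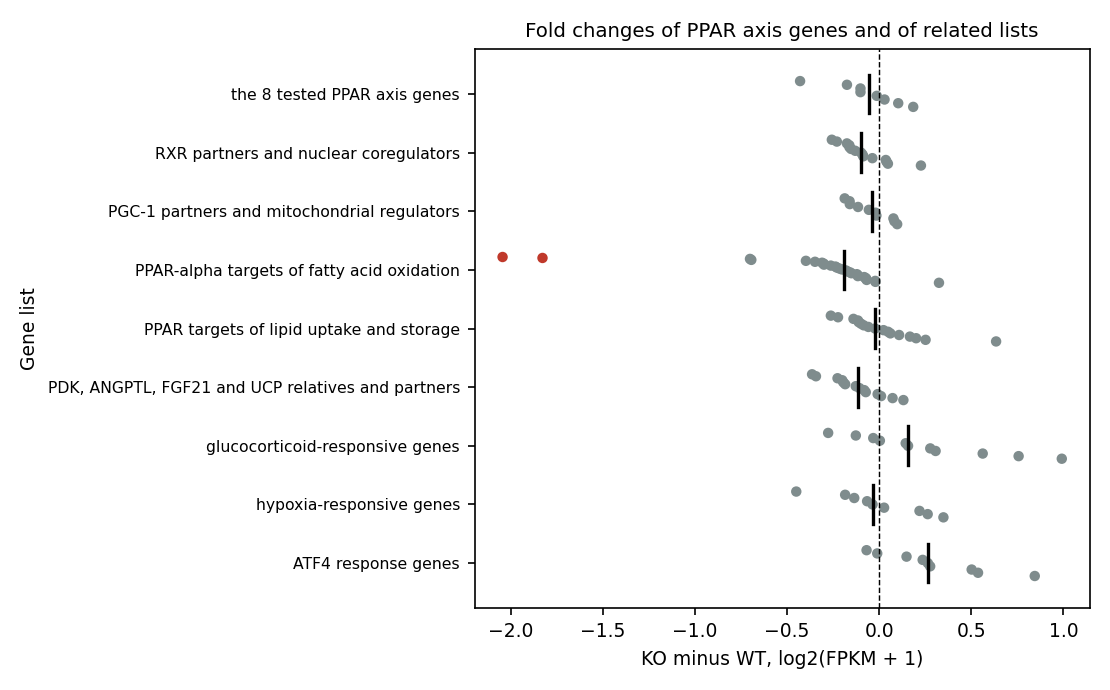
KO minus WT on the log2(FPKM + 1) scale for each tested gene (points) of the PPAR axis and of 8 related lists, with each list's median as a vertical bar. Red points passed at an adjusted p of 0.05. The points of the 8 tested PPAR axis genes lie from -0.43 to 0.18 around 0. Of 28 PPAR-alpha targets, 27 lie below 0 and 2 passed, where 47.2% of all tested genes were above 0 and 0.0413% passed. The target list was drawn up with low values of such targets in these libraries already known.

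Other signals that are known to act on Pdk4, Angptl4 or Fgf21 were read from 3 lists, none of which held a gene past the threshold. The 11 glucocorticoid-responsive genes were above 0 in 8 cases with a median of 0.16. Cebpd, a transcription factor induced by stress hormones, had 6.59 ± 1.85 FPKM in WT against 15.4 ± 9.93 in KO (limma adjusted p = 0.73), and Klf9 was at 74.2 ± 11.6 and 89.9 ± 5.88 FPKM. The log2 fold change of Cebpd was 0.99 with all mice and 0.60 without KO replicate 2. The 9 tested genes of the ATF4 response to amino acid and endoplasmic reticulum stress were above 0 in 7 cases, with a median of 0.26. Their list mean did not overlap between groups, by a small margin, with -0.06 to 0.10 in WT and 0.12 to 0.42 in KO. Chac1, whose product breaks down glutathione, had 0.748 ± 0.287 FPKM in WT against 1.50 ± 0.243 in KO (limma adjusted p = 0.37), and Asns, asparagine synthetase, at 1.29 ± 0.447 and 2.19 ± 0.467 FPKM. Of the 9 tested hypoxia-responsive genes 4 were above 0. Egln1 was at 31.3 ± 2.51 and 36.2 ± 4.33 FPKM and P4ha1, a collagen prolyl hydroxylase, at 11.9 ± 0.349 and 14.5 ± 2.89 FPKM.

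Besides the ATF4 list, 2 lists outside the PPAR axis had means and sums that did not overlap between genotypes. These were among 23 lists examined, which were chosen with earlier results of these data known. Their separation is therefore no independent evidence of a difference, and how often other lists would separate was not tested. The immediate early and heat shock genes were above 0 for all 9 tested, and their list mean was -0.22 to 0.15 in WT and 0.51 to 1.30 in KO. Their median log2 fold change was 0.71. Without KO replicate 2 it was 0.23, with 8 of the 9 above 0. The 7 urothelium markers summed to 3.39 to 8.85 FPKM in WT and 13.4 to 31.8 in KO. Macrophage markers overlapped between the groups. None of these genes passed the test, and the part of these shifts in the values of the PPAR axis was not tested.

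Across the 8 mice, 1 of 28 pairs of tested members was correlated after adjustment over the pairs. Ppard and Rxra had a Pearson r of 0.86 (exact permutation p = 0.00032, adjusted p = 0.0090) and a Spearman rho of 0.98 (exact permutation p = 0.00040, adjusted p = 0.011). Without KO replicates 2 and 3, the mice farthest from the median of Ppard, r was 0.73. Without KO replicate 2 alone r was 0.81 (exact permutation p = 0.026), which did not pass over the 28 pairs (adjusted p = 0.73). Within groups r was 0.62 over the WT mice and 0.98 over the KO mice, both over 4 mice and given with no test.

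The pair with the highest r did not pass. Ppara and Rxra had an r of 0.95 (exact permutation p = 0.069, adjusted p = 0.43) and a rho of 0.43 (exact permutation p = 0.30, adjusted p = 0.98). Their r was 0.69 without WT replicate 4 and KO replicate 2, and 0.00 without KO replicate 2 alone. Of the 28 pairs, 9 changed the sign of r when the 2 mice farthest from the median were left out.

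Members were also set against the means of 9 lists, which gave 72 relations, of which 9 had an exact permutation p under 0.05 and 0 passed after adjustment. The lowest p was that of Ppard and the RXR partners and coregulators, with an r of 0.83 (exact permutation p = 0.0033, adjusted p = 0.24) and a rho of 0.86 (exact permutation p = 0.011, adjusted p = 0.26). Their r was 0.69 without WT replicate 3 and KO replicate 2, and 0.63 without KO replicate 2 alone. The highest r was that of Rxra and the same list, at 0.97 (exact permutation p = 0.026, adjusted p = 0.38). It was 0.35 without KO replicate 2. Angptl4 and the glucocorticoid-responsive genes had an r of 0.78 (exact permutation p = 0.026, adjusted p = 0.38) and a rho of 0.60 (exact permutation p = 0.13). The mice with high Angptl4, WT replicate 4 and KO replicates 2 and 4, were also the 3 with the highest means of that list, at 0.45, 0.69 and 0.33. Without WT replicate 4 and KO replicate 2 the r was 0.34, so the relation rests on them. Ucp2 and the ATF4 list had an r of 0.81 (exact permutation p = 0.0097, adjusted p = 0.27) and a rho of 0.86 (exact permutation p = 0.011), and r was 0.49 without KO replicates 2 and 4. Without KO replicate 2 alone r was 0.76 (exact permutation p = 0.019, adjusted p = 0.35). The relation of Ucp2 was not particular to that list. Ucp2 had an r of 0.72 and a rho of 0.88 with the immediate early and heat shock list. Its r was 0.73 with the glucocorticoid-responsive list and -0.75 with the PGC-1 partners. Ppara and the PDK, ANGPTL, FGF21 and UCP relatives had an r of 0.68 (exact permutation p = 0.011, adjusted p = 0.27). Of the 72 relations, 6 had an exact permutation p under 0.05 without KO replicate 2, and 0 passed after adjustment.

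The genes whose levels followed each member most closely over the 8 mice are given as a description. For Ppara these were Sik2 and Fkbp9, both with an r of 0.99, which became 0.89 without KO replicate 2. Dlg5 and Ptch1 followed Rxra with an r of 1.00, and 0.95 and 0.92 without that mouse. Zfp319 and Hs3st1 followed Ppard with 0.98 and 0.97, and 0.97 and 0.93 without it. Cd164 and Fam219b followed Ppargc1a with 0.95 and 0.94, Nle1 and Abhd17c followed Ppargc1b with 0.90 and 0.88, and Rif1 and Dnajc28 followed Pdk4 with 0.91 and 0.90. For Angptl4 they were Fam195b and Hirip3, with 0.96 and 0.94, and for Ucp2 they were Nfkb2 and Psme2b, with 0.96 and 0.95.

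Ratios between members remove the depth and scaling of a library, and 2 of the 28 ratios did not overlap between groups. The ratio of Ppara to Ppard was 4.19, 4.15, 4.72 and 5.52 in WT and 3.47, 1.94, 3.53 and 4.04 in KO, lower in every KO mouse. The ratio of Ppard to Rxra was 0.150, 0.149, 0.142 and 0.153 in WT and 0.172, 0.173, 0.182 and 0.162 in KO. It was higher in every KO mouse, and KO replicate 2 lay in the middle of its group. The ratio of Ppara to Rxra overlapped, with 0.617 to 0.843 in WT and 0.336 to 0.653 in KO. Among all 73198950 ratios of 2 tested genes, 5.22% did not overlap, a share near that of the members, and the ratios were examined after the values were seen, so no test is given.

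**Figure D5:**
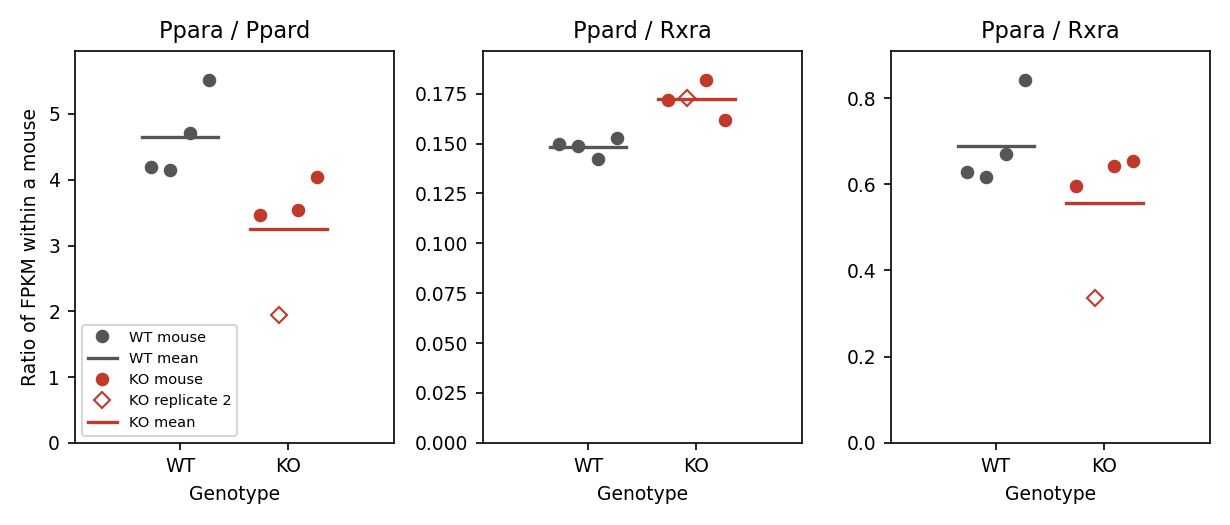
Ratio of FPKM within each mouse for Ppara to Ppard, Ppard to Rxra and Ppara to Rxra, with group means as bars and KO replicate 2 as an open diamond. The first ratio is 4.15 to 5.52 in WT and 1.94 to 4.04 in KO, the second 0.142 to 0.153 and 0.162 to 0.182, and the third overlaps.

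The start sites of these genes were searched for the element that a PPAR and RXR pair binds. Its letters are a direct repeat of AGGTCA with 1 free base between, AGGTCANAGGTCA, read on both strands in windows of 300 bases around RefSeq starts (GRCm38.p6). Of the members, 8 had 11 windows, and Angptl4 and Ppargc1b are named only. One of the 11 windows held a match with at most 2 mismatches of the 12 fixed letters, where 3.86% of all 32851 windows did. It is the second start of Rxra (chr2:27709042-27709341, forward strand), with the match 75 bases upstream of the start. The 30 PPAR-alpha targets gave 21 windows for 19 genes, and 3 held such a match, at Slc25a20 (chr9:108661886-108662185, forward strand), Acot4 (chr12:84038129-84038428, forward strand) and Creb3l3 (chr10:81092542-81092841, reverse strand). These 4 are shown because they are the closest matches at a member and at the targets, with the matched letters in capitals, and the match of Acot4 reads on the opposite strand.
Rxra: ctgagtaaTGGTCATAGGCCAgtgggtgg
Slc25a20: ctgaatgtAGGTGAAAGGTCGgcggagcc
Acot4: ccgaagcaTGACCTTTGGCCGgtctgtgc
Creb3l3: ctgtaagtAGGGGAGAGGTCAcacagacc

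A match of letters is not a binding site, and no binding was measured in these kidneys. None of the tested genes with such a match changed at the threshold. Slc25a20, the carnitine carrier of the mitochondrial membrane, had 36.9 FPKM in WT against 29.4 in KO (limma adjusted p = 0.75). Acot4, a peroxisomal acyl-CoA thioesterase, had 16.2 FPKM against 13.7 (limma adjusted p = 0.82), and Creb3l3, a factor of fasting lipid metabolism, was below the tested range at 0.295 and 0.156 FPKM. These 3 targets were named for their sequence after their values were seen.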

How the data were processed

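The deposited file was 1 table of 35275 genes by 8 mice without a stated unit. The authors deposited these values already scaled, and they were read as FPKM because the lowest values of a gene came in equal steps whose size depended on its length (from the values, as deposited). The submitters' processing notes name CASAVA, STAR 2.5, HTSeq 0.6.1, DESeq2 and build mm10. Which tool did what, the annotation and the use of strand were not stated. Reads were recovered from the steps, within 0.002 reads for all 22945 genes above 0, and served for depth, scaling and limma-voom. For 5865 of these genes the length in GENCODE M21 gave whole reads. For the others a length that gave whole reads was searched for, so their agreement is no independent check. Scaling factors (trimmed mean of M values) were 0.936 to 1.05. Limma 3.58.1 (trend, robust) was run on log2(FPKM / factor + 1) where the mean reached 1 FPKM, with Benjamini-Hochberg adjustment at 0.05. The fit was tried on simulated data with the same variability for all genes and no library that stood apart. That trial does not show how the fit handles a library like KO replicate 2. Errors are SD for levels and SE for fold changes, which understate changes of low genes. Members and lists were chosen with earlier results of these data known. Named genes were the members, up to 4 genes per list past the threshold or else the 2 with the lowest p, and the 2 genes most correlated with each member. C1qtnf1, Adipoq, Plin1, Klb, Fgfr1, Cyp4a10, Acot3, Slc25a20, Acot4 and Creb3l3 were named in addition to this rule. A few genes under this rule, and most marker genes, are not reported here. Correlations used exact permutation tests of pairings. Positions are from GENCODE M21 (mm10). Alternatives were other scalings, filters, a pseudocount of 0.1, limma-voom, array weights and leaving out each mouse. Limma p-values set the difference between groups against the spread between mice within a group, moderated over all tested genes.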

Additional observations from a re-analysis of the deposited data

Results flagged for a closer look

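In a group of 4 mice, a value was noted when its gap to the nearest other mouse was large for the group's range (Dixon's limit at 95%). Chance does this for about 1 in 20 groups, 62 groups were examined, and 7 were noted, 6 of them for KO replicate 2. Among the members these were Ppara, at 12.3 FPKM in KO replicate 2 against 38.9 to 42.0 in the other KO mice, and Rxra, at 36.6 FPKM in the same mouse against 63.9 to 65.3. The mean log2 level of the RXR partners and coregulators was -0.42 in that mouse (0.02 to 0.04 in the other KO mice), that of the proximal tubule markers -0.40 (-0.10 to -0.04), that of the endothelium markers -0.71 (0.02 to 0.09) and that of the immediate early and heat shock genes 1.30 (0.51 to 0.60). In WT, the glucocorticoid-responsive list was high in replicate 4, at 0.45 against -0.20 to -0.12.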

How the results depend on the processing

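No member passed at 0.05 in any of the 16 alternative settings, and the lowest adjusted p was 0.15 (limma, Ppard, with array weights, which gave KO replicate 2 a weight of 0.10). Of 64 member values under other scalings, filters, pseudocount or tests, 60 kept their direction. Reversed were Angptl4 (-0.22), Rxra (0.0509) and Ppargc1b (0.0395) with array weights, and Ppargc1b (0.0020) with upper quartile scaling. With a mouse left out, 55 of 64 kept it, and the ranges of those that did not were -0.19 to 0.28 for Angptl4, -0.17 to 0.0720 for Rxra and -0.0736 to 0.0860 for Ppargc1b. The number of genes called was 59 with array weights and 3 to 21 with a mouse left out, 21 without KO replicate 2 or KO replicate 3, 9 without KO replicate 4, and 3 without WT replicate 1 or WT replicate 3. The correlated pairs fell from 1 to 0 without KO replicate 2, an alternative chosen after seeing the data, as were the ratios, the relations with list means and the list counts without that mouse. The cause of these differences was not tested. No paired analysis was possible because no label ties a KO mouse to a WT mouse. Depth limits Pparg and Fgf21.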
